A study of Mus musculus with 4 samples.

Results

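Markers of parietal endoderm and other secreted or surface proteins were examined in mouse embryonic stem (ES) cells that lacked BAF250, a subunit of the SWI/SNF chromatin remodelling complex. The 7 genes were Pth1r, Pthlh, Plat, Thbd, Srgn, Clu and Cited1, selected on their measured signals, which had been seen to be high in both homozygous arrays. All probe sets carrying one of these symbols in the platform annotation were taken. That gave 10 of the 45101 probe sets, for 6 of the 7 genes: 4 for Clu, 2 for Plat and 1 each for Pth1r, Thbd, Srgn and Cited1. No probe set used here carried the symbol Pthlh, so it has no value.

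Total RNA of 4 ES cell cultures was hybridised to 1 Affymetrix array each. The homozygous knock-out lines ko1 and ko2 (2 arrays) were set beside 1 heterozygous and 1 wild type culture. All were grown without feeders on gelatin, in medium with fetal bovine serum and leukaemia inhibitory factor (LIF). The labels do not say how the allele was made, whether ko1 and ko2 are clones of one parent line, or whether BAF250 means Arid1a or Arid1b. The brighter Arid1a probe set read 7.03 and 3.57 in ko1 and ko2, 50.4 in heterozygous and 109 in wild type, and the other read 17.3 and 1.06, 24.1 and 42.9 in the same order. Only the homozygous group was replicated.

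Parietal endoderm is an extraembryonic tissue that descends from the primitive endoderm of the blastocyst. It migrates over the inner face of the trophoblast and secretes the thick basement membrane of the yolk sac, made of laminins and type IV collagen. Its cells carry the receptor Pth1r, and the ligand PTHLH, acting through cyclic AMP, promotes parietal over visceral differentiation in cultured endoderm. Parietal cells are also known for releasing tissue plasminogen activator, the product of Plat.

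Signals are given as deposited, on a linear scale and in the order ko1, ko2, heterozygous and wild type. Background was taken per array as the highest signal of 27 unspiked bacterial controls, at 5.55, 3.82, 6.92 and 7.57. Median signals were 2.70, 2.61, 2.74 and 4.01, and the ratio of 3' to 5' actin control signals was 5.01, 2.61, 2.86 and 1.3. Log2 differences are therefore relative to the median of the 13729 genes tested, which stood at -0.75 for homozygous minus wild type and -0.03 for homozygous minus heterozygous. Tests by limma are of the differences as deposited, shift included, so they favour falls over rises: 55 genes rose and 84 fell in homozygous against wild type, while 45 rose and 5 fell after median centring and 32 and 1 after quantile normalization. All 16 markers of ES cells that were listed lay above background on all 4 arrays. Because whole cultures were measured, fewer cells that express a gene and less RNA per cell cannot be told apart.

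Pth1r, Srgn, Clu and Cited1 were high in both homozygous lines and at or near background in the heterozygous and wild type cultures, whereas Plat and Thbd did not show that pattern clearly. In 8 of the 10 probe sets ko1 and ko2 each exceeded heterozygous and wild type, as did 11.9% of all non-control probe sets (18.1% relative to array medians). The members were selected for this, so the count is a description and carries no test. The exceptions were the dimmer Plat probe set and the single Thbd probe set. Background was exceeded by 9 of the 10 probe sets in each homozygous line, by 2 in the heterozygous culture and by 2 in the wild type culture.

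**Figure D1:**
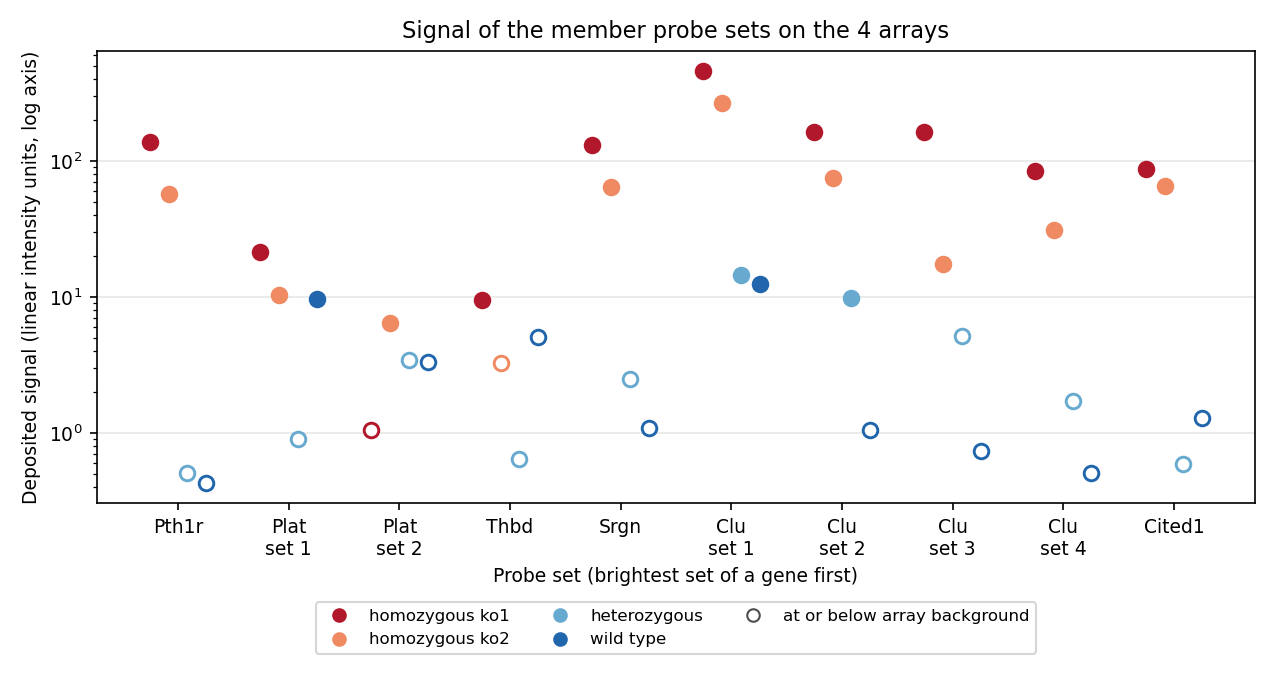
Deposited signal (log axis) of the 10 probe sets on the 4 arrays, with 1 point per array and open points at or below that array's background. Both homozygous points lie above the other arrays for Pth1r, Srgn, Cited1, all 4 Clu sets and the brighter Plat set, but not for the dimmer Plat set or Thbd.

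Pth1r encodes the G protein-coupled receptor shared by parathyroid hormone and PTHLH, and lies on chromosome 9. Its probe set read 137 in ko1 and 57.1 in ko2, against 0.512 in heterozygous and 0.430 in wild type. The signals of these last cultures did not exceed background, so the mean of the homozygous lines was at least 19.6-fold above wild type and at least 13.1-fold above heterozygous. The log2 difference from wild type, 7.54 in ko1 and 6.46 in ko2, ranked 2 among the 13729 genes, and the difference from heterozygous ranked 4. Such ranks, here and for Srgn and Cited1, are of fitted differences from signals below background and fix no order. Since the other cultures were at background, its size depends on the small constant added before taking logs: 7.08 over both lines with a constant of 0.675, 8.39 with that constant divided by 16 and 5.95 with 1.84.

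Srgn encodes serglycin, the core protein of a proteoglycan that packs secretory granules, whose cDNA came first from a rat yolk sac tumour. It lies on chromosome 10. The probe set read 130 in ko1 and 63.9 in ko2, against 2.50 in heterozygous and 1.08 in wild type. Both homozygous signals were well apart from the others, which lay below background. Their mean was at least 20.2-fold higher than wild type (rank 4 of the genes tested) and at least 13.4-fold higher than heterozygous (rank 15).

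Cited1, on the X chromosome, encodes a transcriptional coactivator that does not bind DNA by itself. It read 87.4 in ko1 and 64.8 in ko2, against 0.595 in heterozygous and 1.29 in wild type. Of the 6 genes it had the closest homozygous lines, with ko1 over ko2 at 1.35. The mean of the lines was at least 16.7-fold above wild type (rank 6) and at least 11.1-fold above heterozygous (rank 8).

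Promoter sequence is shown for these 3 genes because their signals moved together. Of the 7 members, 4 matched the promoter table (RefSeq, GRCm38.p6): Pth1r, Pthlh, Srgn and Cited1. The 250 bases before the outermost annotated start are given, 5' to 3' on the minus strand, from chr9:110747146-110747395 for Pth1r, chr10:62527446-62527695 for Srgn and chrX:102252182-102252431 for Cited1. Capitals mark letters searched on both strands: the cyclic AMP response half-site TGACG, the SOX core ACAAT, for GATA factors AGATAA as well as the form TGATAA, each also with G as its last letter, and TATAAA.
Pth1r: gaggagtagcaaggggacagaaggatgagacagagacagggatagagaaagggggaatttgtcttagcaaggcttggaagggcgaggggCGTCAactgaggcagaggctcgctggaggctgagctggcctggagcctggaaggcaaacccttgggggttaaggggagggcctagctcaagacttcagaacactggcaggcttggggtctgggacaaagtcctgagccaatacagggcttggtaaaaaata
Srgn: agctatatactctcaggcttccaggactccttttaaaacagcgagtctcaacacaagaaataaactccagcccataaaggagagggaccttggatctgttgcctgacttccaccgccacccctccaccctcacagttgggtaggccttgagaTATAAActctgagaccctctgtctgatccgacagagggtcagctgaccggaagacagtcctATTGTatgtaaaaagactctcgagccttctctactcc
Cited1: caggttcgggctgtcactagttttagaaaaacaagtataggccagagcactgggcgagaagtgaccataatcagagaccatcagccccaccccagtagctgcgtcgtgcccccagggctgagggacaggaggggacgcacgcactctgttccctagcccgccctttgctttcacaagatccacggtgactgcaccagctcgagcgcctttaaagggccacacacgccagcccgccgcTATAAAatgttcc

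The Pth1r window held 1 half-site (read as CGTCA on the strand shown), a match found in 17.8% of 27025 promoter windows of the same length. The Srgn window held 1 SOX core (read as ATTGT), found in 28.2% of windows, and 1 TATAAA, found in 13.0%. The Cited1 window held 1 TATAAA as well, close to the start. A GC box, GGGCGG on either strand and not in capitals here, was found in 33% of windows. Cited1 held 1 (read as CCGCCC) and Pthlh 4, while Pth1r and Srgn held none. None of the GATA letters, found in 27.1% of windows, was in the windows of the 4 members, Pthlh included. The windows also differed in base composition, with 56.0% G and C in Pth1r, 49.6% in Srgn, 58.0% in Cited1 and 75.2% in Pthlh. These matches describe letters only.

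Clu, on chromosome 14, encodes clusterin, a secreted glycoprotein that acts as an extracellular chaperone. Its brightest probe set read 454 in ko1 and 266 in ko2, against 14.4 in heterozygous and 12.4 in wild type. All these signals exceeded background, so the 44.7-fold difference from wild type (rank 12) and the 23.6-fold difference from heterozygous (rank 19) are measured on both sides. The next gave 162 in ko1 and 75.3 in ko2, against 9.77 in heterozygous and 1.06 in wild type. The third read 162 and 17.5, 5.16 and 0.736, and the fourth 83.5 and 30.9, 1.73 and 0.505. All 4 placed both homozygous lines highest, with log2 differences from wild type between 5.48 and 6.74, and all 4 placed heterozygous above wild type. Of the 4, 3 have the suffix x_at, which marks probes that can also match other transcripts. The third set differed most between the lines, with ko1 9.30 times ko2, against 1.71 to 2.70 in the other 3.

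Plat, on chromosome 8, encodes tissue plasminogen activator, the secreted protease that turns plasminogen into plasmin. The brighter probe set read 21.5 in ko1 and 10.3 in ko2, against 0.911 in heterozygous and 9.67 in wild type. The ko2 and wild type signals were close to each other, and heterozygous alone lay below background. The log2 difference from wild type was 1.68 for ko1 and 0.83 for ko2, rank 1972 of the genes tested; the mean of the homozygous lines was at least 2.2-fold above heterozygous. The dimmer probe set gave another order, with 1.05 in ko1 and 6.42 in ko2 against 3.41 in heterozygous and 3.33 in wild type, and only ko2 above background. With both Plat sets averaged, the log2 difference from heterozygous was 1.54, against 3.33 on the brighter set.

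Thbd, on chromosome 2, encodes thrombomodulin, the surface receptor through which thrombin activates protein C. It read 9.55 in ko1 and 3.29 in ko2, against 0.645 in heterozygous and 5.11 in wild type. Only ko1 exceeded background, and ko2 lay below wild type, so high in both homozygous arrays did not describe this gene. Its log2 difference from wild type was 1.4 for ko1 and 0.20 for ko2, rank 3000 of 13729. The log2 difference from heterozygous was 2.30, also between signals of which only ko1 was above background.

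**Figure D2:**
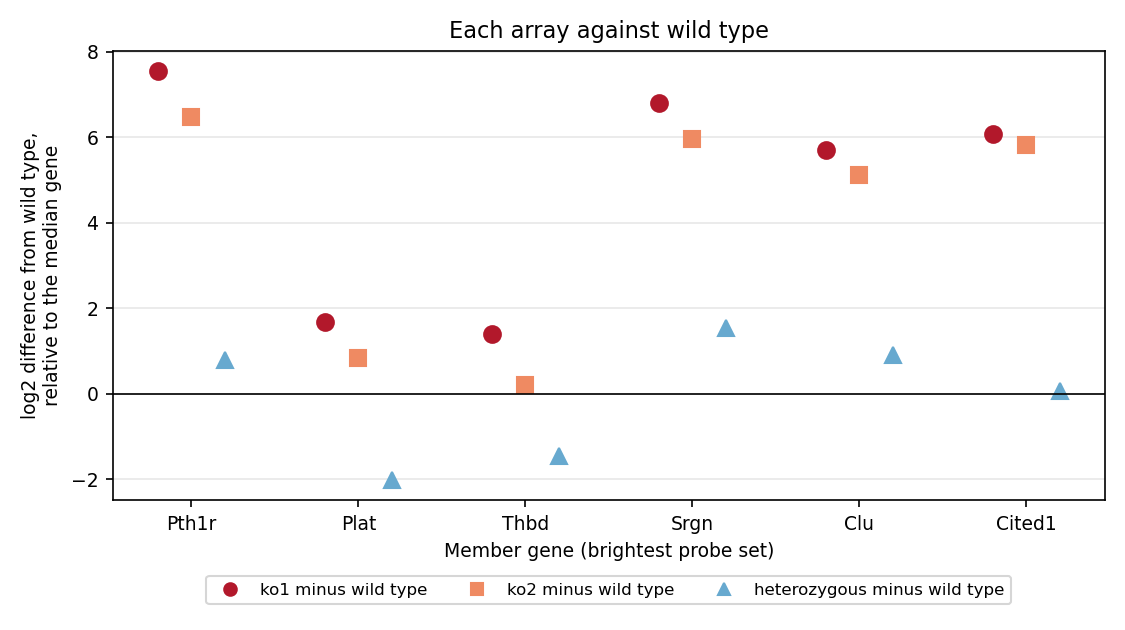
Log2 difference of each array from wild type, relative to the median gene, on the brightest probe set of the 6 genes (circles ko1, squares ko2, triangles heterozygous). Pth1r, Srgn, Clu and Cited1 lie between 5.10 and 7.54 in both homozygous lines, Plat and Thbd between 0.20 and 1.68, and heterozygous between -2.02 and 1.54.

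The homozygous lines differed in level, mostly with ko1 higher. The ko1 signal was above the ko2 signal in 9 of the 10 probe sets, all 4 Clu sets among them, against 54.7% of all probe sets without controls. The exception was the dimmer Plat set, at 1.05 in ko1 and 6.42 in ko2. On the brightest sets ko1 minus ko2 ranged from 0.24 (Cited1) to 1.18 (Thbd) on the log2 scale, relative to the median gene. Over all tested genes, dim ones included, the middle 80% of this difference ran from -1.72 to 1.56, and the 6 values lay inside that range. In the 134 other genes that make up the top 1% by difference from wild type, its median was 0.36. The middle 80% of those genes ran from -0.51 to 1.17, with Pth1r (1.06) near its upper end and Thbd (1.18) just above it. The ratio of 3' to 5' actin signal was also higher in ko1 (5.01) than in ko2 (2.61), and its part in these differences was not tested.

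The comparison of heterozygous with wild type was the only one whose difference did not enter the choice of genes. Genes high in either culture would still tend to be left out. With 1 array a side, loss of a single copy cannot be told apart from other differences between the cultures. The comparison could be read for Plat and Clu only. Pth1r, Thbd, Srgn and Cited1 were below background on both arrays compared, and Pth1r, Srgn and Cited1 entered the fit through their homozygous signals, so their lack of a call says nothing about loss of a copy. Plat did not pass, at 0.911 in heterozygous (below background) against 9.67 in wild type: its deposited log2 difference was -2.71 ± 1.01 SE, or -2.02 relative to the median gene (limma adjusted p = 0.578). Its unadjusted p was under 0.05. Clu did not pass on its brightest set either, at 14.4 against 12.4 (deposited log2 difference 0.21 ± 0.63 SE, 0.89 relative to the median gene, limma adjusted p = 0.936). Across all tested genes 0.0146% fell, 0.0% rose and 7.57% had an unadjusted p under 0.05. With every probe set fitted, the second Clu set had the lowest limma adjusted p of the members, 0.522, with a deposited log2 difference of 2.59 ± 0.70 SE. It read 9.77 in heterozygous, above background, against 1.06 in wild type, below it. Each culture had 1 array here, and its spread was assumed to equal that between the homozygous lines.

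Since several members are known from parietal endoderm, other markers of that tissue were examined. Of 26 listed parietal markers tested, 12 rose in homozygous against wild type cells, 0 fell and 14 did not pass, against 0.401% of all genes rising and 0.612% falling. The list was chosen with earlier results of these data known, so its counts are a description. It also holds genes of primitive endoderm, such as Pdgfra and Gata6 below, so its counts cannot tell parietal from other endoderm. Among those that rose, Fst (0.453 in heterozygous, 0.85 in wild type) and Sox17 (0.217 and 4.04) entered the fit through their homozygous signals. An unadjusted p under 0.05 was found in 19 of the 26 (17 higher, 2 lower), against 11.9% of tested genes. The lower ones, which did not pass after adjustment and are named after their values were seen, were Lgals3 (-1.14) and Hspg2 (-0.41). The median log2 difference of the 26 was 3.11, where the median gene is at 0, and 4 lay below the median gene. In 20 of 26 ko1 and ko2 each exceeded heterozygous and wild type, as in 11.0% of tested genes. Among the genes that rose were those of basement membrane chains, Col4a2 (at least 119-fold), Col4a1 (132-fold) and Lama1 (62.0-fold), and Fst, which encodes an activin antagonist (at least 14.9-fold). These 4 had the largest fitted differences, but Fst was below background in wild type, so its place among them is not fixed. Pdgfra, a growth factor receptor of primitive endoderm, gave 19.8 and 8.48 in the homozygous cells, against 1.87 in heterozygous and 0.966 in wild type (limma adjusted p = 0.226). Gata6, a regulator of that lineage, read 25.5 and 23.4, 3.67 and 3.20 (limma adjusted p = 0.0726). Against heterozygous 13 of the 26 rose and 0 fell (0.699% and 0.0583% of all genes), with the same homozygous arrays in both comparisons. The count against wild type was 6 without ko1 and 9 without ko2 in a fit of 2 groups, which pools heterozygous with wild type, 3 with probe sets averaged, and 0 when limma used no intensity trend.

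Serpinh1, the chaperone of collagen in the endoplasmic reticulum, was the one parietal marker called in heterozygous against wild type, and is named after its values were seen. Its brighter set gave 627 and 194 in the homozygous cells, 2.16 in heterozygous and 33.7 in wild type (limma adjusted p = 0.0245 for heterozygous minus wild type). The other set read 65.2 and 60.8, 11.8 and 3.74, with heterozygous above wild type, so the probe sets ran opposite ways in that comparison.

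Visceral endoderm, the sister tissue that absorbs and exports nutrients, gave fewer calls. Of 21 markers tested 3 rose and 0 fell, against 0.401% and 0.612% of all genes, with a median of 1.35. In 10 of 21 both homozygous lines were highest, as in 11.0% of tested genes. Cubn, an endocytic receptor, read 97.5 and 25 against 1.11 in heterozygous and 1.02 in wild type (at least 10.9-fold above wild type, limma adjusted p = 0.000262). Cubn, like Ttr below, was under background in heterozygous and wild type and entered the fit through its homozygous signals. Spink1, a secreted protease inhibitor, rose 11.8-fold with 150 and 49.8 in the homozygous lines, 5.61 in heterozygous and 11.7 in wild type (limma adjusted p = 0.00608). Podxl, a surface sialomucin, rose 8.32-fold with 95.1 and 34.9, 16.2 and 11.1 (limma adjusted p = 0.0331). Ttr, a thyroid hormone carrier, read 20.1 and 18.5, 0.277 and 0.423 without passing (limma adjusted p = 0.072), as did Foxa2 with 38.4 and 9.50, 2.10 and 3.16. The list was mixed, with 8 of the 21 below the median gene. An unadjusted p under 0.05 was found in 11 of the 21 (7 higher, 4 lower), against 11.9% of tested genes. The lower ones, which did not pass after adjustment and are named after their values were seen, were Lefty1 (-1.08), Cdh1 (-1.09), Apoe (-0.58) and Apoa2 (-1.78). The count was 0 without ko1 and 2 without ko2 in the fit of 2 groups. Whether the parietal and visceral lists differ was not tested.

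**Figure D3:**
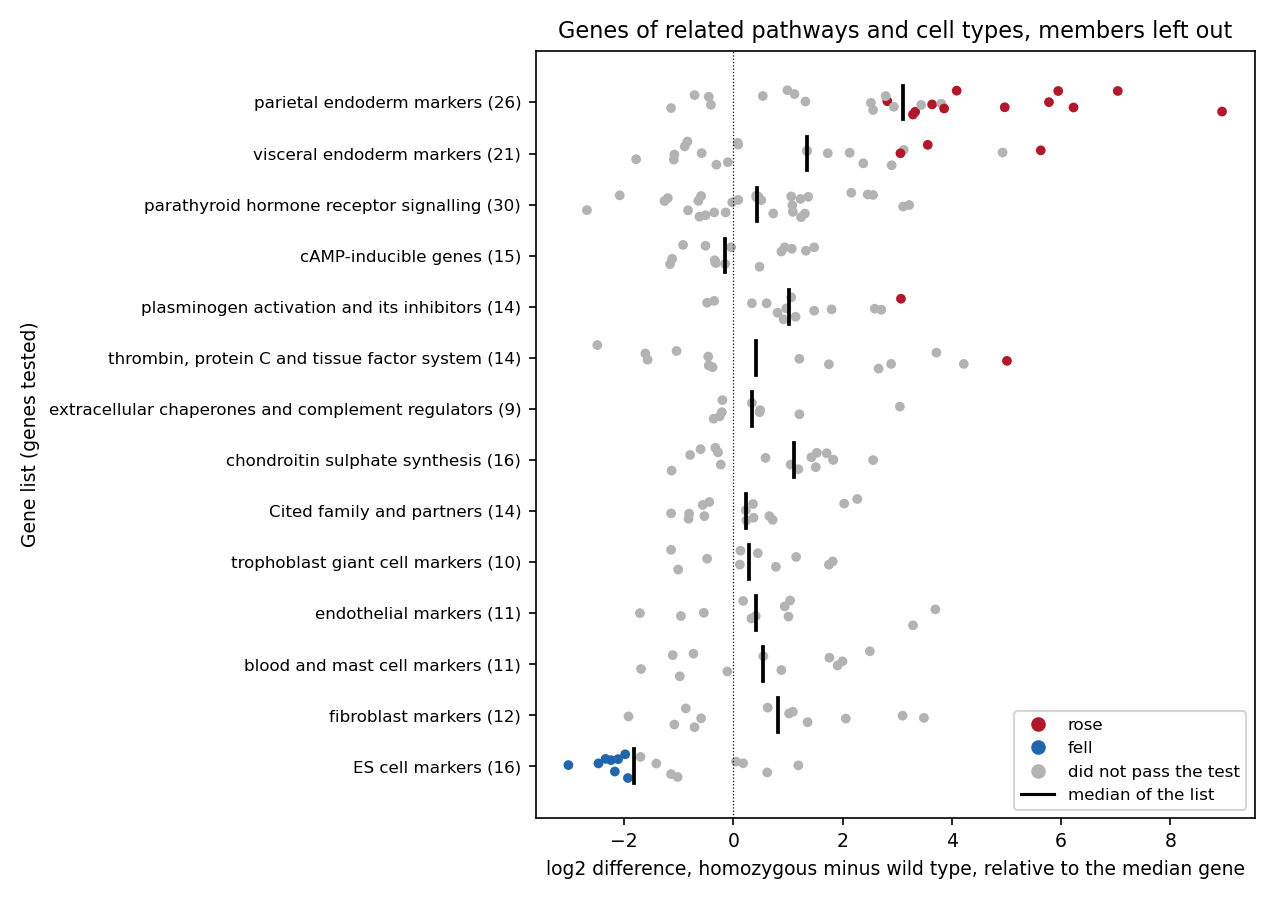
Log2 difference of homozygous minus wild type, relative to the median gene, for the tested genes of each list (number in brackets), with the member genes left out. Red points rose, blue points fell, grey points did not pass the limma test and black bars are list medians; the parietal list has its median at 3.11 and the ES cell list at -1.81.

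The signalling chain around Pth1r gave no calls against wild type. Of 30 tested genes for ligands, G proteins, adenylyl cyclases, kinase A subunits and adaptors, 0 passed limma, and the median was 0.44. In 5 the unadjusted p was under 0.05 (3 higher, 2 lower), against 11.9% of tested genes. The furthest were Slc9a3r2, a scaffold that binds the receptor tail, with 10.4 and 13.5 in the homozygous lines, 9.99 in heterozygous and 1.59 in wild type (limma adjusted p = 0.215), and Furin, a protease that processes prohormones, with 17.7 and 8.23, 6.70 and 1.82 (limma adjusted p = 0.273). Some more genes are named for their roles after their values were seen. Gnas, the stimulatory G protein that couples the receptor to cyclic AMP, was well expressed everywhere, at 126 and 143 in the homozygous lines, 85.2 in heterozygous and 90.5 in wild type. Ramp2, an accessory protein of such receptors, read 55.2 and 26.1, 1.62 and 11.1 (limma adjusted p = 0.292). It was the 1 gene of the list that rose against heterozygous (log2 difference 4.11, limma adjusted p = 0.000143). The other ligand genes of the family gave no higher homozygous signal: Pth stayed below background on all 4 arrays, and Pth2 read 7.66 and 0.758 against 14.0 in heterozygous and 12.6 in wild type.

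Genes that cyclic AMP induces were also without calls. Of 15 tested, 0 passed limma and 0 had an unadjusted p under 0.05, with a median of -0.15. In none of the 15 were both homozygous lines above both other arrays, as they were in 11.0% of tested genes. Of the 17 listed genes with a probe set, 5, 9, 5 and 7 exceeded background in ko1, ko2, heterozygous and wild type. Many thus lay near background, so the lack of calls carries little weight. The furthest were Sik1, a kinase, with 7.51 and 0.653 in the homozygous lines, 3.31 in heterozygous and 1.31 in wild type, and Sst, the somatostatin gene, with 0.7 and 7.44, 0.947 and 1.55. Sik1 exceeded background in ko1 only and Sst in ko2 only.

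Around Plat, 14 genes of plasminogen activation and its inhibitors were tested, with a median of 1.01. Of these 1 rose and 0 fell, against 0.401% and 0.612% of all genes. The rise was in Timp2, an inhibitor of matrix metalloproteinases, at 90.8 and 33.5 in the homozygous lines, 7.83 in heterozygous and 10.5 in wild type (8.42-fold, limma adjusted p = 0.0423); its 6 probe sets stood between 1.03 and 3.85. That call ended without either homozygous line and in 6 other settings. Anxa2, a surface protein that binds tissue plasminogen activator, read 373 and 173, 57.9 and 70.2 (limma adjusted p = 0.137). Vtn, which stabilises an inhibitor of the activator, read 5.11 and 4.58, 0.674 and 0.742. Plau, the urokinase gene, stayed below background on all 4 arrays, and is named for its role after its values were seen.

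Around Thbd, 14 genes of the thrombin, protein C and tissue factor system were tested, with a median of 0.41. Of these 1 rose and 0 fell, against 0.401% and 0.612% of all genes. Tfpi, the secreted inhibitor of the tissue factor pathway, read 230 in ko1 and 66.3 in ko2, against 9.01 in heterozygous and 5.79 in wild type. Wild type lay below background, and the rise was at least 27.3-fold (limma adjusted p = 5.3e-06); the 4 Tfpi probe sets stood between 2.18 and 5.01. The call ended without ko1 in the fit of 2 groups, with probe sets averaged and without an intensity trend. F3, the tissue factor gene itself, read 20 and 11, 3.45 and 0.724 (limma adjusted p = 0.0841), and Procr, the protein C receptor that works beside thrombomodulin, 14.4 and 7.60, 2.07 and 0.746 (limma adjusted p = 0.283). For both genes ko1 and ko2 exceeded the other cultures.

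The lists around the remaining genes held no calls. Of 16 tested genes for the chondroitin sulphate chains that serglycin carries, 0 passed limma and 0 had an unadjusted p under 0.05 (median 1.12). The furthest were above background in ko1 only. The sulphotransferase gene Chst15 read 11.6 in ko1 and 0.766 in ko2, against 0.424 in heterozygous and 0.521 in wild type, and Cd44, which encodes a surface glycoprotein, 8.18 and 1.14, 0.344 and 1.22. Of 9 extracellular chaperones and complement regulators, 0 passed and 0 had an unadjusted p under 0.05 (median 0.34). Apcs, a pentraxin, gave 5.54 and 5.70 in the homozygous cells, against 3.82 in heterozygous and 0.597 in wild type, and Vldlr, a lipoprotein receptor, 3.66 and 9.57 against 0.230 and 4.16. Of 14 members and partners of the Cited family, 0 passed and 1 had an unadjusted p under 0.05 (median 0.23). That was Cited2, at 61.9 and 56.5 in the homozygous lines, 18.7 in heterozygous and 23.8 in wild type (log2 difference 2.03 ± 0.54 SE, limma adjusted p = 0.336). Tfap2b, a transcription factor partner of the family, read 6.20 and 4.31, 5.19 and 1.36.

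Some members are also made by endothelium (Thbd, Plat), blood and mast cells (Srgn) and trophoblast, so markers of these cells were read beside them. Of 15 endothelial markers with a probe set, 4, 8, 1 and 2 exceeded background in ko1, ko2, heterozygous and wild type, with summed signals of 71.4, 61.9, 47.3 and 59.0. Vwf, Tie1 and Icam2, named after their values were seen, were below background on all 4 arrays. Flt1 (14.2 and 10.7, 5.75 and 0.998) and Esam (13.1 and 5.89, 3.44 and 0.958) exceeded it in both homozygous lines only. Of 20 blood and mast cell markers, 3, 10, 6 and 3 exceeded background in the same order, with sums of 87.6, 81.6, 93.4 and 114. Among them Cd34, Gzmb and Mcpt4 stayed below background everywhere. Ptprc read 5.23 and 4.10 in the homozygous lines, above background in ko2 only, against 0.364 in heterozygous and 0.201 in wild type. Cpa3 (5.98 and 5.70, 2.57 and 1.26) exceeded background in both homozygous lines only, and Kit (26.7 and 8.14, 7.22 and 6.99) in all but wild type. Except for Cpa3, these blood genes are named after their values were seen. Of 12 trophoblast giant cell markers, 5, 6, 1 and 4 exceeded background, with sums of 50.0, 72.5, 46.2 and 78.0. Of 15 fibroblast markers, 7, 8, 1 and 6 did, with sums of 83.4, 86.6, 46.9 and 103. These counts depend on each array's background, which 45.8%, 34.0%, 59.9% and 41.4% of tested genes did not exceed, in the same order. The part of these cells in the members' signals was not tested. No tested gene of these 4 lists (11, 11, 10 and 12) passed limma. An unadjusted p under 0.05 was found in 2, 2, 0 and 2, against 11.9% of tested genes. Both of the endothelial ones were higher, both of the blood ones lower (Laptm5 at -1.69 and Itga2b at -0.98, named after their values were seen), and of the fibroblast ones 1 was higher and 1 lower. The furthest were Flt1 (3.70) and Esam (3.29) for endothelium, Cpa3 (2.50) and Tyrobp (2.00) for blood, Rhox6 (1.82) and Elf5 (1.75) for trophoblast, and Twist1 (3.49) and Dcn (3.10) for fibroblasts.

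Of 16 ES cell markers tested, 8 fell in homozygous against wild type cells, 0 rose and 8 did not pass, with a median of -1.81. Over all genes 0.612% fell and 0.401% rose. Of the 8 that did not pass, 4 stood above the median gene, among them Klf4 (1.19) and Dppa3 (0.62), named after their values were seen. The summed signal, as deposited and not scaled to array medians, was 950 in ko1 and 1010 in ko2, against 2150 in heterozygous and 3690 in wild type. Most of each sum came from Dppa5a, which did not pass, at 658, 725, 1540 and 2340 in the same order. The largest falls were in Fgf4, a growth factor gene (-3.02), Pou5f1, which encodes OCT4 (-2.47), and the transcription factor genes Utf1 (-2.34) and Sox2 (-2.24). Uncalled members furthest from 0 were Nanog (-1.70, limma adjusted p = 0.0562) and Zfp42 (-1.41, limma adjusted p = 0.072). After quantile normalization 0 of the 16 were called, and 0 without either homozygous line in the fit of 2 groups. After median centring 2 were called. Against heterozygous, in the main fit, 2 of the 16 fell and 0 rose (0.0583% and 0.699% of all genes).

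The genes whose pattern over the 4 arrays was nearest to the mean of the 6 members were Tinagl1, Ctsh, Lamb1, Crim1, P4ha2 and Ttr. Likeness was the Euclidean distance between log2 profiles, each centred on its own mean, and ran from 0.46 for Tinagl1 to 0.71 for P4ha2 and Ttr. The median distance over all tested genes was 4.66 and the lowest 1% lay under 2.03. Tinagl1, a secreted matrix protein, read 79.2 and 30.8 in the homozygous lines, 0.978 in heterozygous and 2.19 in wild type. Ctsh, a lysosomal protease, read 90.2 and 63.3, 3.34 and 6.66. Crim1, a membrane protein that binds growth factors, read 20.1 and 19.6, 0.322 and 0.822. The members themselves stood further from their mean, from 0.82 for Clu to 3.13 for Thbd. With 4 arrays, 2 of them homozygous, this is a likeness of levels only. All 6 nearest genes lay below background in heterozygous and wild type, so their order is not fixed.

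**Figure D4:**
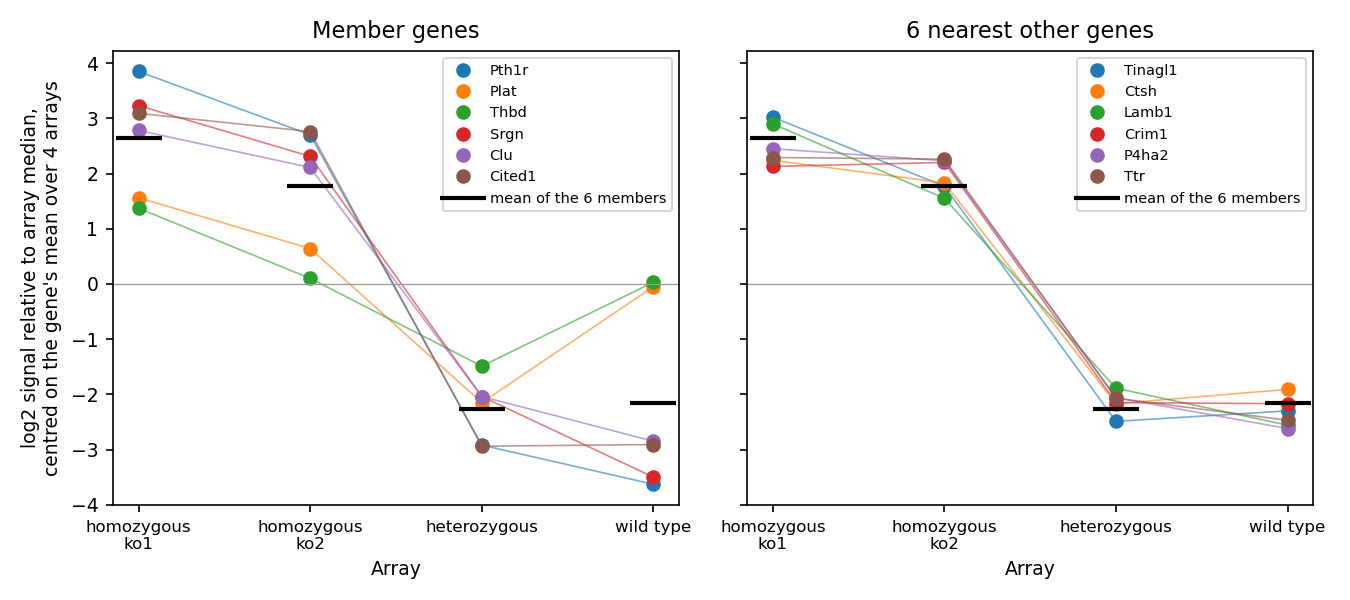
Log2 signal relative to the array median, centred on each gene's mean over the 4 arrays, for the 6 member genes (left) and the 6 nearest other genes (right); black bars are the mean of the members. Plat and Thbd have wild type values near 0, while the other members and the 6 nearest genes have wild type values from -3.63 to -1.91.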

How the data were processed

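Total RNA of 4 cultures was measured on 1 array each; the labels name no separate cultures within a line, and p-values reflect only how these samples differ, which may be technical. Per the submitters' processing notes the deposited signal intensity values were computed with MAS5; the sources used here give neither its version nor the scaling target. No depth applies; the number of arrays limits the precision. Symbols came from the platform annotation: of 45101 probe sets 34958 had 1 symbol, 932 several and 9211 none. Promoters and chromosomes are from RefSeq (GRCm38.p6).

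Each of 18193 genes was represented by its brightest probe set, and the 13729 whose mean over arrays passed 2.55 (the 40th percentile) were tested as log2(signal + 0.675), the constant being the 20th percentile of all values. Fold changes on that scale understate changes of dim genes. The fit was limma 3.58.1 in R 4.3.3, 1 mean per genotype, eBayes with an intensity trend and Benjamini-Hochberg adjustment at 0.05. It has 1 residual degree of freedom, between the homozygous lines. "At least" folds set signals against the dim array's background, relative to the median gene.

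The members and gene lists were chosen with earlier results of these data known. Members got no test in comparisons with homozygous cells. Of each list, all called genes up to 6 (otherwise 4) and up to 2 uncalled ones with the largest differences were named. Alternatives changed the constant, scaling, filter, probe set rule, trend, grouping and homozygous lines. The fit was run on simulated data whose spread depended on intensity alone and was equal on all arrays. Such data cannot check these 2 assumptions of the fit.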

Additional observations from a re-analysis of the deposited data

How the results depend on the processing

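The 108 recomputed member differences from wild type and from heterozygous kept their direction; 12 moved by over 1 SD between the homozygous lines, 10 of them with another pseudocount and 2 with probe sets averaged. The count of 8 member probe sets with both homozygous lines highest stayed at 8 relative to array medians and after quantile normalization, and was 9 without either line. Leaving out a line can only keep or raise that count. Because the members were selected for high homozygous signals, neither this count nor the kept directions show stability. In heterozygous minus wild type the lowest adjusted p of the members ranged from 0.522 (every probe set fitted, chosen after seeing the data) to 1; for members below background on both arrays this says nothing about stability.

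Counts of called genes depended on the fit. Its spread came mostly from an intensity trend over all genes, itself estimated between 2 homozygous lines. The cause of the dependence was not tested. Against the 55 genes that rose and 84 that fell, the counts were 29 and 26 with the pseudocount divided by 16, 62 and 141 with 1.84, 32 and 1 after quantile normalization, 45 and 5 after median centring, 26 and 18 without the filter, 7 and 0 with probe sets averaged, 0 and 0 in limma without a trend (1232 genes at an unadjusted p under 0.05) and 61 and 29 in the fit of 2 groups (12 and 2 without ko1, 25 and 7 without ko2). Without an intensity trend the counts were 0 for the parietal, visceral, plasminogen, thrombin and ES cell lists. With probe sets averaged they were 3 for parietal and 0 for the other 4. Visceral rises were 1 with the pseudocount divided by 16, 1 after quantile normalization and 1 without the filter, where plasminogen rises were 0, as after median centring. ES cell falls were 0 after quantile normalization, 2 after median centring and 5 in the fit of 2 groups, which also called 1 gene of parathyroid hormone signalling. Without a homozygous line, counts ran from 6 to 9 (parietal), 0 to 2 (visceral), 0 to 0 (plasminogen), 0 to 1 (thrombin) and 0 to 0 (ES cell falls). No paired analysis was possible because only the homozygous group has numbered replicates.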
